A study of Mus musculus with 2 samples.

Results

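The Wnt ligand Wnt3, the Wnt effector Lef1 and the antagonists Sfrp1, Sfrp2, Apcdd1 and Sostdc1 were followed through mouse whole skin. They are the 6 Wnt ligand, effector and antagonist genes chosen by name from the 480 genes of a custom Xenium panel, on which single transcripts are imaged in place with probes that are ligated into circles on their target. Transcripts with a quality score of at least 20 were kept, which left 31646 transcripts of the 6 genes among 3540184 in the WT control section and 24731 among 2875112 in the Utx-cKO section. Each group is 1 section of 5 µm from fixed, paraffin-embedded skin of B6/129 females. In the Utx-cKO mice Kdm6a, which encodes the histone demethylase Utx, was deleted in keratin-14 expressing tissues by Krt14-Cre. Krt14 is a gene of basal and outer root sheath keratinocytes, so the deletion is aimed at the epithelium and not at the dermis. The sources used here do not give the age of the mice, the skin site or the number of animals. With 1 section per group no test between the groups was possible, and every interval below covers counting error only.

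Wnt ligands bind Frizzled receptors on a neighbouring cell, beta-catenin then enters the nucleus, and there it joins Lef1 or another TCF factor to switch on target genes. Sfrp1 and Sfrp2 are secreted proteins that bind Wnts, Apcdd1 is a membrane protein that blocks Wnt signalling, and Sostdc1 (also called Wise or ectodin) is secreted and dampens Wnt signalling through its receptors as well as binding BMPs. In skin the pathway is known for starting hair follicles, for driving hair growth through signals between the follicle epithelium and the dermal papilla, and for renewing the epidermis.

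The files held 40371 segmented cells in the WT section and 52308 in the Utx-cKO section. Of these, 33263 and 37395 had at least 20 transcripts and were kept, with a median of 62 and 48 transcripts. Levels are in CPM, the count of a gene in a set of cells scaled to the same total of panel transcripts, which compares 1 gene between sets but not 1 gene with another. Of the 20 negative control probes, the highest stood at 45.6 CPM in the WT section and 87.2 CPM in the Utx-cKO section, so levels near those are close to the background. Kdm6a was at 2779 CPM in WT and 2227 CPM in Utx-cKO epithelial cells, a log2 ratio of -0.32 (-0.39 to -0.25), and at 2618 and 2470 CPM in fibroblast-like cells. The sources used here do not say where its probes lie relative to the deleted part, so this value does not check the labels. Each section held 4 separate strips of tissue, numbered by position, whose spread is shown as a description because nothing says that they are separate animals.

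Cells were clustered on the panel without the 6 genes. Of 16 clusters, 8 were epithelial by the share of keratinocyte marker transcripts, which was at least 15.8% in them and at most 2.84% elsewhere, and 3 were fibroblast-like. The epithelial clusters held 14568 WT and 18764 Utx-cKO cells, and the fibroblast-like clusters 7273 and 7422. One of the latter, led by Inhba and Igfbp3, is small, with 342 and 454 cells. Inhba is among the dermal papilla genes listed for this work, but it was the only gene of that list among the cluster's 10 leading genes, so the cluster is called here by its leading gene.

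Wnt3 and Sostdc1 were epithelial genes, Sfrp2 and Apcdd1 were genes of the dermis, and Lef1 and Sfrp1 each had a main site in the epithelium and another in the dermis. In each section 2 of 6 genes were at least 1.5-fold higher in epithelial than in fibroblast-like cells (Wnt3 and Sostdc1), against 30.4% of 464 genes compared in WT and 29.5% of 468 in Utx-cKO. The other 4 of 6 were at least 1.5-fold lower, against 42.2% and 43.4%. The median log2 ratio of the 6 was -0.99 in WT and -1.24 in Utx-cKO, beside -0.25 and -0.35 over all genes compared. A gene entered a comparison with at least 100 counts over the sets compared.

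**Figure D1:**
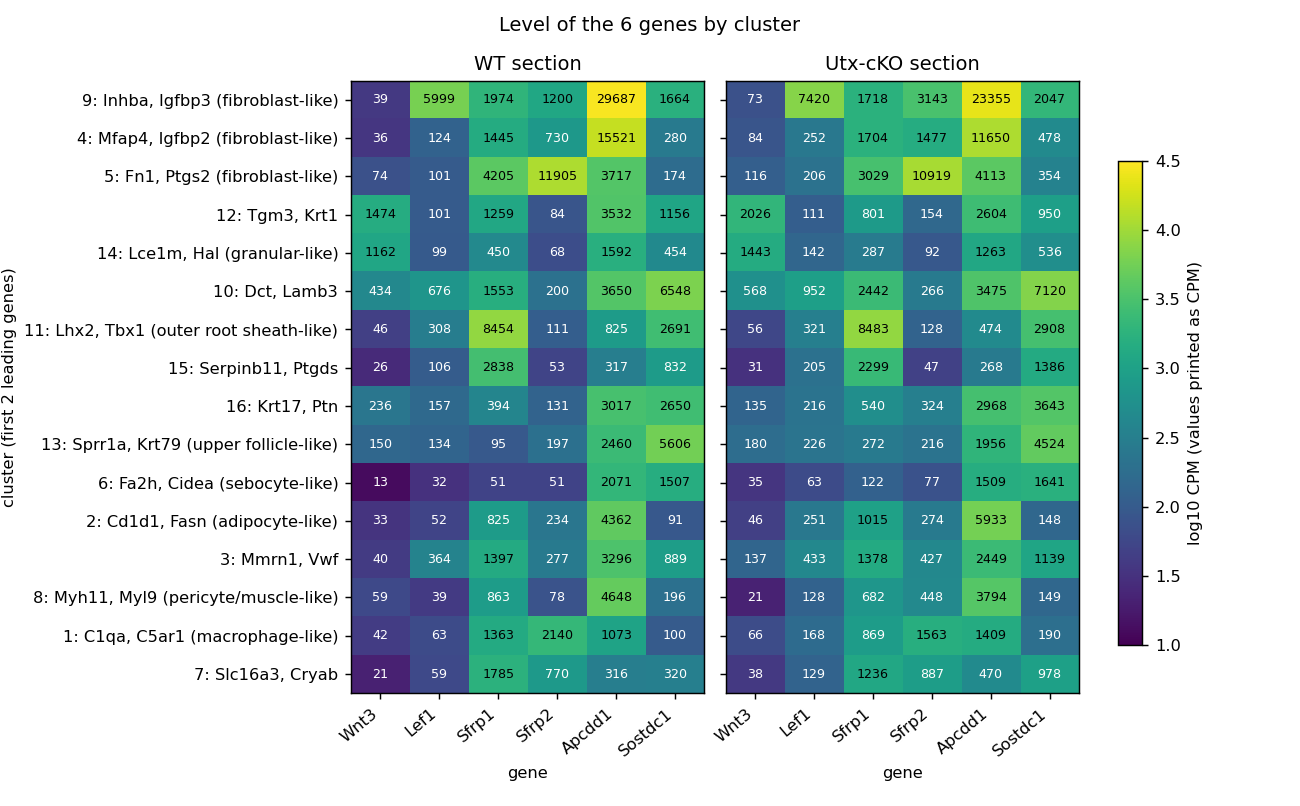
Level of each gene in CPM (printed, and coloured on a log10 scale) in the 16 clusters of the WT and Utx-cKO sections, with clusters named by their first 2 leading genes. Lef1 and Apcdd1 peak in the cluster led by Inhba, Sfrp2 in the cluster led by Fn1, Sfrp1 in the cluster led by Lhx2, Sostdc1 in the cluster led by Dct and Wnt3 in the cluster led by Tgm3, in both sections.

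Wnt3, a ligand of the canonical pathway, stood at 680.3 CPM (634.9 to 727.9) in WT epithelial cells and 56.6 CPM (37.3 to 82.3) in WT fibroblast-like cells, a log2 ratio of 3.59 (3.04 to 4.20). In the Utx-cKO section it stood at 703 and 103 CPM, a log2 ratio of 2.77 (2.31 to 3.28). The fibroblast-like level was close to that of the highest negative control probe in both sections, and 93.6% and 92.0% of Wnt3 counts lay in epithelial clusters. Within the epithelium Wnt3 marked the interfollicular layers. The cluster led by Tgm3 and Krt1, which mixes basal and suprabasal markers, held 1474 CPM in WT (907 to 2215 over its strips) and 2026 CPM in Utx-cKO (1607 to 2490). The granular keratinocyte-like cluster held 1162 CPM (854 to 1460) and 1443 CPM (991 to 2223), a range that overlaps the first. Next came the cluster led by Dct and Lamb3, with 434 and 568 CPM, and no other cluster passed 236 CPM in WT or 180 CPM in Utx-cKO. Epithelial Wnt3 was high close to the granular layer alone. It was at 1024 CPM in WT and 1271 CPM in Utx-cKO within 50 µm of granular-like cells, and at 33.5 and 27.7 CPM between 50 and 100 µm.

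Lef1, the DNA-binding partner of beta-catenin, was concentrated in the small fibroblast-like cluster led by Inhba. It reached 5999 CPM there in WT (4824 to 8079 over strips) and 7420 CPM in Utx-cKO (4851 to 8711), above the range of every other cluster in both sections. With 1.03% and 1.21% of the kept cells, this cluster held 29.4% and 27.4% of Lef1 counts, or 45.3 and 44.7 Lef1 transcripts per 100 cells. The second site was epithelial, the cluster led by Dct and Lamb3, at 676.5 CPM (533.6 to 833) in WT and, in Utx-cKO, 951.8 CPM (749 to 1232). The vessel cluster led by Mmrn1 and Vwf followed with 364 and 433 CPM, and the outer root sheath-like cluster led by Lhx2 with 308 and 321 CPM. The remaining clusters lay between 31.7 and 157 CPM in WT and between 62.9 and 252 CPM in Utx-cKO. Over all fibroblast-like cells Lef1 was at 430 CPM in WT against 179 CPM in epithelial cells, a log2 ratio of -1.26 (-1.55 to -0.98) for epithelial over fibroblast-like, and the Utx-cKO ratio was -1.67 (-1.90 to -1.43). That direction rested on the Inhba cluster: without its cells the ratio was 0.69 (0.24 to 1.16) in WT and 0.10 (-0.27 to 0.48) in Utx-cKO.

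The cluster led by Dct also held melanocyte transcripts, since Dct encodes a melanin-synthesis enzyme. Its cells were therefore divided by whether they carried a Dct, Pmel or Mlana transcript. Lef1 was at 1730 CPM in the 299 WT cells with such a transcript and 401 CPM in the 1626 without, and at 2384 and 683 CPM in 334 and 2267 Utx-cKO cells. Both levels were above the 179 and 238 CPM of the whole epithelium. Cells of the cluster within 25 µm of follicle cells, defined below, had 1302 and 1611 CPM of Lef1, and those over 50 µm away had 226 and 532 CPM.

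Sfrp1, a secreted Wnt-binding antagonist, had its highest level in the outer root sheath-like cluster led by Lhx2 and Tbx1. It stood at 8454 CPM there in WT (strips at 5277 to 11113) and 8483 CPM in Utx-cKO (5896 to 9752). The dermal site was the cluster led by Fn1 and Ptgs2, with 4205 CPM in WT (2256 to 11104) and 3029 CPM in Utx-cKO (1748 to 9381), so the strips of the epithelial and dermal sites overlapped. Among the other epithelial clusters Sfrp1 was highest in those led by Serpinb11 (2838 and 2299 CPM) and by Dct (1553 and 2442 CPM), and the Inhba cluster had 1974 and 1718 CPM. Sfrp1 was lowest in the sebocyte-like cluster, at 50.7 and 122 CPM, and in the upper follicle-like cluster led by Sprr1a and Krt79, at 94.6 and 272 CPM. Over whole classes Sfrp1 was nearer to equal than the other 5 genes, with 1811 against 2968 CPM in WT and 1417 against 2505 CPM in Utx-cKO. The log2 ratios were -0.71 (-0.81 to -0.62) and -0.82 (-0.94 to -0.71).

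Sfrp2, its paralogue, had no epithelial site. The Fn1 cluster held 75.7% of its counts in WT and 72.9% in Utx-cKO, at 11905 CPM (10673 to 13143 over strips) and 10919 CPM (6963 to 14777). The macrophage-like cluster had 2140 and 1563 CPM, the Inhba cluster 1200 and 3143 CPM, and the fibroblast-like cluster led by Mfap4 and Igfbp2 730.5 and 1477 CPM. In epithelial cells Sfrp2 was at 102 CPM in WT and 144 CPM in Utx-cKO, against 6805 and 7301 CPM in fibroblast-like cells, so it was 66.5-fold and 50.7-fold lower (log2 ratios -6.05 and -5.66). Only 55.0% and 60.9% of Sfrp2 transcripts fell inside segmented cells, compared with 74.7% and 84.9% of all panel transcripts and with 97.3% and 98.3% of Wnt3. Its transcripts were also seldom over a nucleus, 17.6% and 24.6% against 34.3% and 41.5% for the panel.

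Apcdd1, a membrane inhibitor of Wnt signalling, was highest in the Inhba cluster. It stood there at 29687 CPM in WT (13796 to 39103 over strips) and 23355 CPM in Utx-cKO (18711 to 33468). The much larger Mfap4 cluster followed with 15521 CPM (12554 to 17431) and 11650 CPM (9021 to 14120) and held 31.4% and 20.7% of Apcdd1 counts. The strips of these 2 clusters overlapped in WT and did not in Utx-cKO. The Fn1 cluster, where Sfrp2 peaked, had only 3717 and 4113 CPM of Apcdd1, in the range of the adipocyte-like cluster (4362 and 5933 CPM) and of the epithelial clusters led by Dct (3650 and 3475 CPM) and Tgm3 (3532 and 2604 CPM). Apcdd1 was lowest among epithelial clusters in the Serpinb11 cluster, at 317 and 268 CPM. The class totals were 2299 CPM in WT epithelial against 9898 CPM in fibroblast-like cells, a log2 ratio of -2.11 (-2.17 to -2.04), and the Utx-cKO ratio was -2.16 (-2.23 to -2.08).

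Sostdc1, the antagonist that also binds BMPs, was epithelial, with 86.9% of its counts in epithelial clusters in WT and 85.5% in Utx-cKO. Its log2 ratio of epithelial over fibroblast-like was 2.92 (2.68 to 3.18) in WT and 2.27 (2.06 to 2.49) in Utx-cKO. The Dct cluster had 6548 CPM in WT (3143 to 10421 over strips) and 7120 CPM in Utx-cKO (4272 to 10511), and the upper follicle-like cluster 5606 CPM (3758 to 7607) and 4524 CPM (3154 to 8072), which overlap. The Lhx2 cluster followed with 2691 and 2908 CPM and the cluster led by Krt17 and Ptn with 2650 and 3643 CPM. Granular-like cells were lowest in the epithelium, at 454 and 536 CPM. Outside the epithelium the Inhba cluster was highest, at 1664 and 2047 CPM. In the Dct cluster Sostdc1 went the other way from Lef1. It was at 2132 and 2711 CPM in cells with a melanocyte transcript and 7705 and 7946 CPM in cells without, and at 3018 and 4987 CPM within 25 µm of follicle cells but 9146 and 8345 CPM over 50 µm from them.

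Position relative to hair follicles was measured from follicle cells. These were epithelial cells with at least 2 transcripts of Lhx2 and Tbx1 together that had at least 2 other such cells within 30 µm. Lhx2 and Tbx1 are transcription factor genes of follicle stem cells. The rule found 886 cells in WT and 812 in Utx-cKO. Since it needs at least 2 transcripts in a cell, from either gene or both, it picks fewer cells where counts per cell are low. They were compared with epithelial cells over 50 µm away. In WT 4 of 5 genes with enough counts were at least 1.5-fold apart, against 64.5% of 380 genes compared, and in Utx-cKO 4 of 6, against 69.4% of 431. In each section 2 were higher in follicle cells, against 22.1% and 21.3% of all genes, and 2 were lower, against 42.4% and 48.0%.

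Lef1 and Sfrp1 were the genes higher in follicle cells. Sfrp1 was at 5620 CPM in WT follicle cells against 845 CPM in other epithelial cells, a log2 ratio of 2.73 (2.56 to 2.90), and at 6265 against 715 CPM in Utx-cKO, for a log2 ratio of 3.13 (2.95 to 3.31). Lef1 was at 510 against 113 CPM in WT, a log2 ratio of 2.17 (1.63 to 2.71), and at 696 against 186 CPM in Utx-cKO, for a log2 ratio of 1.90 (1.41 to 2.38). With upper follicle cells, marked by Krt79 and Gata6, in place of Lhx2 and Tbx1 cells, the sign turned for both genes. The log2 ratio was then -2.25 in WT and -1.67 in Utx-cKO for Lef1, and -4.54 and -3.22 for Sfrp1.

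Wnt3 was nearly absent from follicle cells. It had 4 counts in 90211 transcripts of WT follicle cells, or 44.3 CPM against 1040 CPM elsewhere, a log2 ratio of -4.55 (-6.43 to -3.19). In Utx-cKO follicle cells it had 0 counts in 67516 transcripts, and with a floor of 3 counts over the group it was at least 23.0-fold lower than the 1022 CPM elsewhere. The exact 95% interval of that log2 ratio reached up to -4.22, which allows a smaller fold. Apcdd1 was lower in follicle cells too, with log2 ratios of -1.06 (-1.34 to -0.79) and -1.23 (-1.65 to -0.85). This sign depended on the choice of follicle cells. It was positive with upper follicle cells (0.31 and 0.33). It was also positive (0.08 and 0.47) with whole epithelial clusters that had Lhx2 or Tbx1 among their leading genes. Those were the clusters led by Lhx2, Serpinb11, Dct and Krt17. Apcdd1 was low in the Lhx2 cluster (825 and 474 CPM) and the Serpinb11 cluster (317 and 268 CPM). It was higher in the Dct cluster (3650 and 3475 CPM) and the Krt17 cluster (3017 and 2968 CPM). Sostdc1 was under 1.5-fold apart, at 2051 against 2274 CPM in WT and 2903 against 2122 CPM in Utx-cKO. Sfrp2 had 5 and 14 counts in follicle cells.

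**Figure D2:**
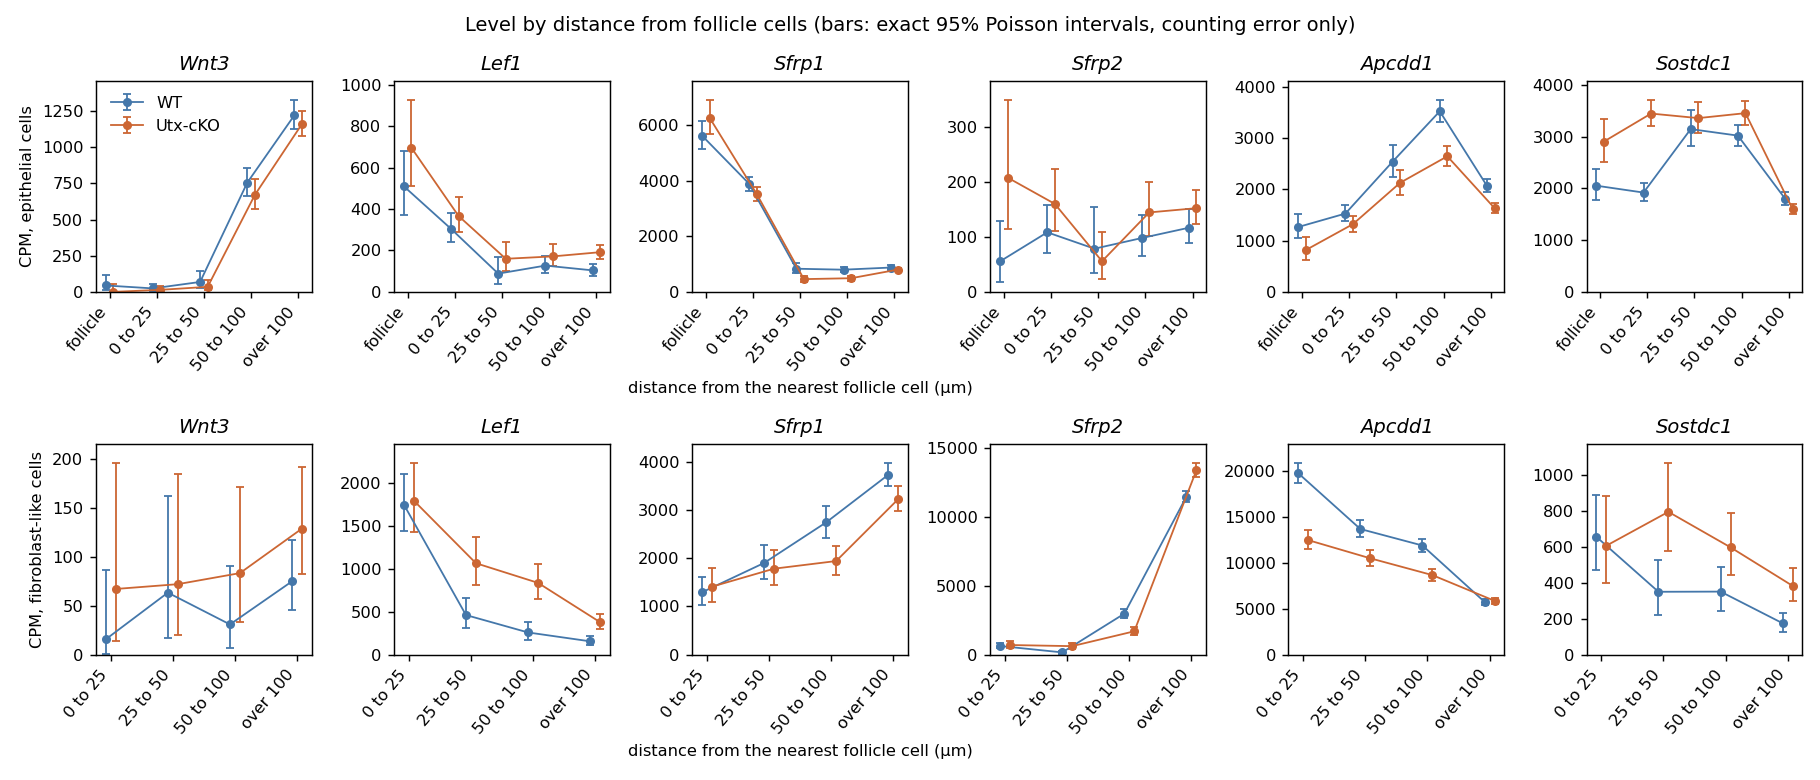
Level of each gene in CPM in epithelial cells (upper row) and fibroblast-like cells (lower row) by distance in µm from the nearest follicle cell, with exact 95% Poisson intervals, in the WT (blue) and Utx-cKO (orange) sections. Epithelial Sfrp1 goes from 5620 and 6265 CPM to 832.5 and 459 CPM at 25 to 50 µm, Wnt3 reaches 1222 and 1161 CPM beyond 100 µm, and among fibroblast-like cells Lef1 and Apcdd1 are highest nearest to follicle cells while Sfrp1 and Sfrp2 are highest beyond 100 µm.

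The distance profile of epithelial cells differed between the genes. Sfrp1 was at 3885 CPM in WT and 3519 CPM in Utx-cKO within 25 µm of follicle cells, and 832.5 and 459 CPM between 25 and 50 µm. Beyond 100 µm it was at 875 and 804 CPM. Sostdc1 was at 1918 CPM within 25 µm in WT, 3144 CPM at 25 to 50 µm, 3018 CPM at 50 to 100 µm and 1800 CPM beyond. In Utx-cKO it was at 3444, 3356, 3452 and 1598 CPM, with no lower value next to follicle cells. Apcdd1 peaked at 50 to 100 µm in both sections, with 3519 CPM in WT and 2642 CPM in Utx-cKO. Wnt3 was at 24.0 and 14.1 CPM within 25 µm, 68.6 and 34.7 CPM at 25 to 50 µm and 1222 and 1161 CPM beyond 100 µm.

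**Figure D3:**
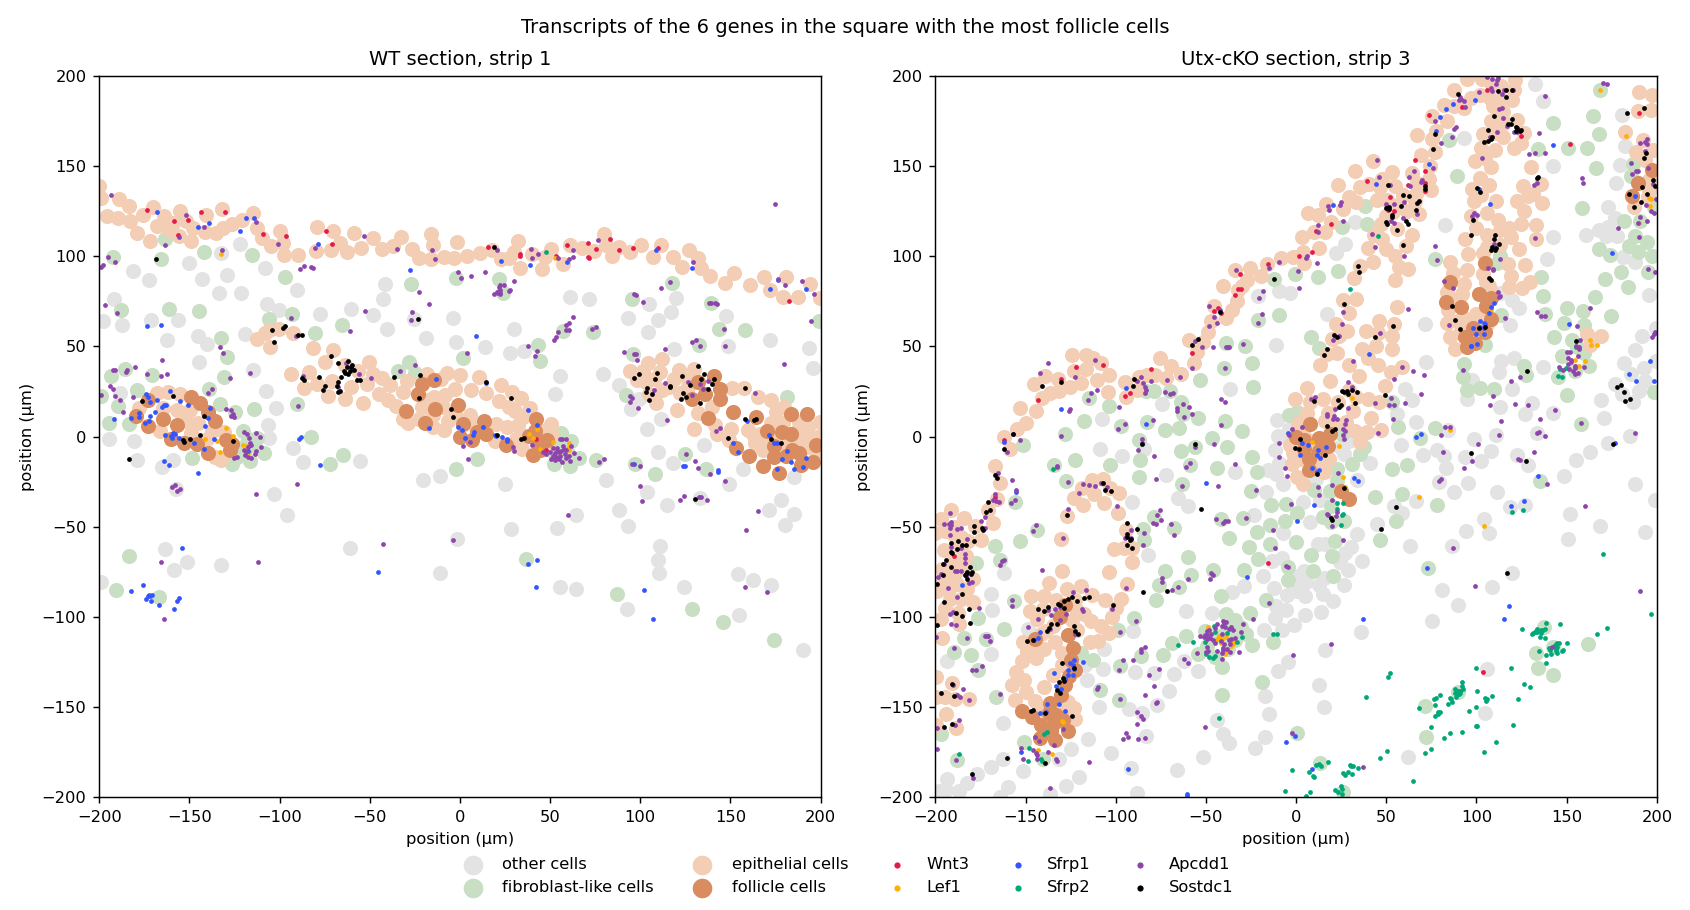
Transcripts of the 6 genes (small dots) over cell centres in the 400 µm square with the most follicle cells in each section, 63 follicle cells in WT and 50 in Utx-cKO; axes are µm from the centre of the square. Wnt3 lies mostly along the surface epithelium, Sfrp1 lies on and around follicle cells, groups of Apcdd1 and Lef1 transcripts sit at the ends of some follicles, and most of the Sfrp2 of the Utx-cKO square (152 transcripts, against 1 in the WT square) lies at its lower edge.

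Among fibroblast-like cells, those within 25 µm of a follicle cell were compared with those over 100 µm away. All 4 genes with enough counts were at least 1.5-fold apart in each section, against 42.2% of 270 genes compared in WT and 38.8% of 258 in Utx-cKO. Lef1 and Apcdd1 were higher near follicles, as were 20% and 17.1% of all genes, and Sfrp1 and Sfrp2 were lower, as were 22.2% and 21.7%. Lef1 was at 1747 CPM near and 154 CPM far in WT, a log2 ratio of 3.50 (2.97 to 4.07), and at 1793 and 377 CPM in Utx-cKO, for a log2 ratio of 2.25 (1.77 to 2.74). With upper follicle cells as the anchor the WT ratio of Lef1 turned to -0.93 (-2.13 to 0.08), and the Utx-cKO ratio was 0.03. Without the Inhba cluster the Lef1 ratio was 0.93 (-0.37 to 2.08) in WT and 0.53 (-0.54 to 1.48) in Utx-cKO.

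Apcdd1 was at 19717 CPM near and 5725 CPM far in WT, a log2 ratio of 1.78 (1.67 to 1.89), and at 12442 and 5844 CPM in Utx-cKO, for a log2 ratio of 1.09 (0.94 to 1.24). Sfrp2 was at 624 CPM near and 11497 CPM far in WT, a log2 ratio of -4.20 (-4.69 to -3.76), and at 695 and 13410 CPM in Utx-cKO, for a log2 ratio of -4.27 (-4.83 to -3.76). Sfrp1, which was highest in the follicle epithelium itself, was low in the fibroblast-like cells beside it, at 1295 CPM near and 3740 CPM far in WT and 1412 and 3234 CPM in Utx-cKO. The log2 ratios of Sfrp1 were -1.53 (-1.87 to -1.21) and -1.20 (-1.59 to -0.82). Sostdc1 and Wnt3 had under 100 counts in these sets.

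Depth below the surface moved with these levels. Fibroblast-like Apcdd1 had 20654 CPM in WT and 16793 CPM in Utx-cKO under 50 µm from granular-like cells, and 1795 and 1565 CPM over 300 µm from them. Sfrp2 had 177 and 187 CPM in the shallow cells and 13330 and 19273 CPM in the deep ones. Sfrp1 had 490.1 and 394 CPM in the shallow and 4714 and 3305 CPM in the deep cells. Lef1 instead had its highest value at 100 to 200 µm, 803 CPM in WT and 1415 CPM in Utx-cKO. Within a band of 50 to 200 µm depth the near over far ratios kept their signs, at 2.62 and 1.32 for Lef1, 1.12 and 0.25 for Apcdd1, -1.24 and -0.96 for Sfrp1 and -3.76 and -3.38 for Sfrp2. The Apcdd1 ratio in Utx-cKO was then under 1.5-fold.

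The Utx-cKO section was compared with WT next, first in epithelial cells, where Krt14-Cre acts. None of 6 genes was 1.5-fold apart there, against 19.2% of 469 genes compared. The median log2 ratio of the 6 was 0.10, beside 0.14 over all genes. Lef1 was at 179 CPM in WT and 238 CPM in Utx-cKO, for a log2 ratio of 0.41 (0.16 to 0.67), and Sfrp2 at 102 and 144 CPM, a log2 ratio of 0.49 (0.16 to 0.83). The highest negative control probe went from 45.6 to 87.2 CPM between the same sections, and its part in these differences was not tested. Apcdd1 and Sfrp1 were lower in Utx-cKO, with log2 ratios of -0.36 (-0.44 to -0.28) and -0.35 (-0.44 to -0.27). Sostdc1 and Wnt3 were nearest to equal, at 0.15 (0.08 to 0.22) and 0.05 (-0.09 to 0.18), and both were below 0 when counts were divided by cells instead of transcripts (-0.10 and -0.20). Each epithelial cluster was also given the same share of cells in both sections, the mean of its shares in them. The ratio was then -0.01 for Sfrp1, -0.002 for Sostdc1 and 0.34 for Wnt3. The Wnt3 ratio was also below 0 at a quality score of at least 30 (-0.23, -0.39 to -0.07) and without WT strip 3 (-0.28). For Sostdc1 it was also below 0 with cells thinned to 20 transcripts (-0.046) and without WT strip 3 (-0.044). Without Utx-cKO strip 3 the Sostdc1 ratio was -0.118 (-0.206 to -0.031). By mean counts per cell Apcdd1 and Sfrp1 passed 1.5-fold, at -0.61 and -0.60.

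Strips of the same section differed too. Epithelial Wnt3 was at 643.5, 804, 398 and 1117 CPM in WT strips 1 to 4 and at 503.5, 917, 695 and 849.5 CPM in the Utx-cKO strips. Epithelial Apcdd1 was at 1674, 1240, 3612 and 1394 CPM in WT and 796, 1344, 2806 and 1504 CPM in Utx-cKO, with strip 3 highest in each. Without WT strip 3 the Apcdd1 ratio was 0.27, and without Utx-cKO strip 3 it was -0.998. Epithelial Sostdc1 was at 2968, 2949, 1735 and 1968 CPM in WT and 2447, 3295, 3186 and 828 CPM in Utx-cKO. The strips of the sections overlapped for each of the 6 genes. Over all genes compared they did not overlap for 7.68% in epithelial cells and 2.31% in fibroblast-like cells. At such low shares, overlap in all 6 does not set them apart from the panel. Without WT strip 2 or WT strip 4, Sfrp2 passed 1.5-fold (0.63 and 0.66).

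**Figure D4:**
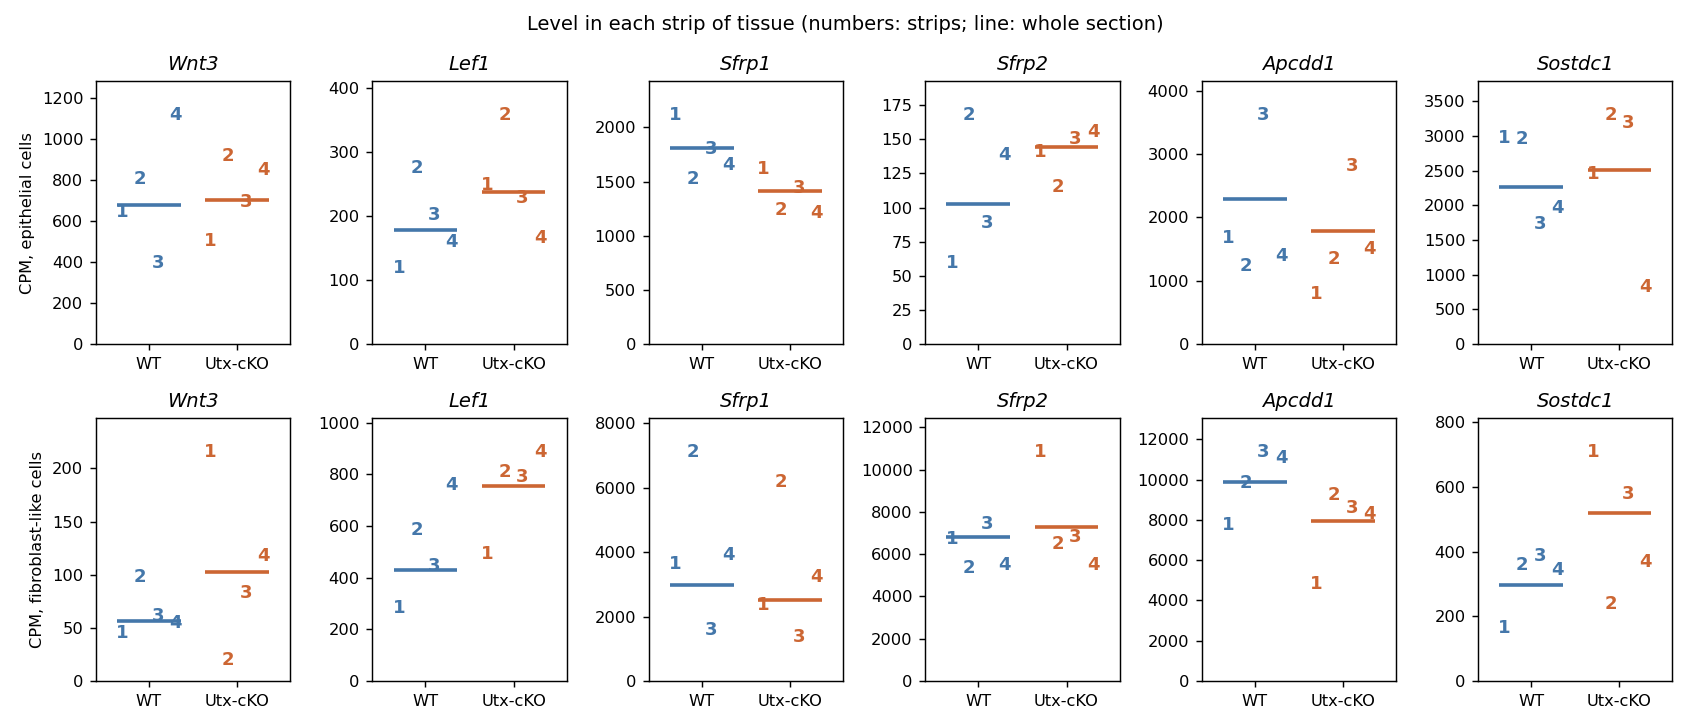
Level of each gene in CPM in the 4 strips of tissue of each section (digits 1 to 4) and over the whole section (line), in epithelial cells (upper row) and fibroblast-like cells (lower row). The strips of the WT and Utx-cKO sections overlap for all 6 genes in both rows, and strip 3 holds the highest epithelial Apcdd1 in each section.

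In fibroblast-like cells, where the deletion is not directed, Lef1 and Sostdc1 were at least 1.5-fold higher in the Utx-cKO section, 2 of 5 genes with enough counts. Over all genes compared, 16.9% of 432 were 1.5-fold apart and 14.6% were higher, with a median log2 ratio of 0.16. Lef1 was at 430 CPM in WT and 755 CPM in Utx-cKO, for a log2 ratio of 0.81 (0.55 to 1.08). Its strips were at 283, 584, 443 and 757 CPM in WT and 492, 809.7, 788 and 886.5 CPM in Utx-cKO, which overlap. Sostdc1 was at 298 and 519 CPM, a log2 ratio of 0.80 (0.48 to 1.13), with strips at 164, 357, 387 and 343 CPM in WT and 708, 237, 577 and 368 CPM in Utx-cKO, which also overlap. WT strip 1 was the lowest WT strip for both genes, and without it the ratios were 0.55 and 0.47, under 1.5-fold. By mean counts per cell both were under 1.5-fold too, at 0.41, and the genes past it were then Apcdd1 (-0.71) and Sfrp1 (-0.64). The higher levels of Lef1 and Sostdc1 were not particular to fibroblast-like cells. In the other non-epithelial cells Lef1 was at 118.5 CPM in WT and 248.7 CPM in Utx-cKO, and Sostdc1 at 323 and 647.7 CPM.

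The Inhba cluster was 4.70% of fibroblast-like cells in WT and 6.12% in Utx-cKO. With each of the 3 fibroblast-like clusters given the same share of cells in both sections, the Lef1 ratio was 0.57, under 1.5-fold. The Sostdc1 ratio was 0.76. Over 25 µm from every epithelial cell the ratios were 1.35 (0.82 to 1.89) for Lef1 and 0.99 (0.48 to 1.52) for Sostdc1. Within the Inhba cluster Lef1 had a log2 ratio of 0.31. Outside it Lef1 was at 111 CPM in WT and 222 CPM in Utx-cKO, levels at which the highest negative control probe went from 45.6 to 87.2 CPM between the same sections; its part in the Lef1 difference was not tested. Of the other genes, Sfrp1 was at 2968 and 2505 CPM (-0.24), Sfrp2 at 6805 and 7301 CPM (0.10, but -0.30 by mean counts per cell), and Apcdd1 at 9898 and 7966 CPM (-0.31). Fibroblast-like Sfrp1 ranged widely over strips, with 1572 to 7109 CPM in the WT section and 1371 to 6182 CPM in the other, strip 2 highest and strip 3 lowest in each, and without Utx-cKO strip 3 its ratio was 0.34. Wnt3 had 27 and 38 counts.

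Within single clusters some ratios were larger than over the classes. Sfrp2 was higher in Utx-cKO in the Inhba cluster, a log2 ratio of 1.39 (0.78 to 2.03), where the strips overlapped (668 to 2152 CPM and 1222 to 7035 CPM). The Sfrp2 ratio was 1.02 (0.69 to 1.35) in the Mfap4 cluster, where the strips overlapped too (325 to 1208 CPM and 505 to 3488 CPM), and 0.37 (-0.03 to 0.76) without Utx-cKO strip 2. In the Fn1 cluster that holds most Sfrp2 the ratio was -0.12 (-0.20 to -0.05). Sostdc1 in the unnamed cluster whose leading genes are Slc16a3 and Cryab, both listed as muscle genes, was at 320 CPM in WT and 978 CPM in Utx-cKO, for a log2 ratio of 1.61 (1.19 to 2.04). Its strips there ran from 0 to 885 CPM and from 52.7 to 1737 CPM. Without Utx-cKO strip 3 the sign of this Sostdc1 ratio turned, to -0.59 (-1.52 to 0.25). Apcdd1 in the Lhx2 cluster was at 825 and 474 CPM, a log2 ratio of -0.80 (-1.27 to -0.34), with overlapping strips (398.6 to 1712 CPM and 200.3 to 693 CPM). Without WT strip 3 the Apcdd1 ratio was 0.02 (-0.55 to 0.59), and without Utx-cKO strip 1 it was -0.45.

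Among pairs of 1 of the 6 genes with a cluster or class that had at least 100 counts, the strips of the sections did not overlap in 2 of 61, both of them Sfrp1. Over all pairs of a gene and a cluster the share was 3.26%, which leaves out the epithelial and fibroblast-like classes that the 61 include. In the Dct cluster Sfrp1 was at 1255 to 1797 CPM in the WT strips and 2003 to 2996 CPM in the Utx-cKO strips, a log2 ratio of 0.65 (0.39 to 0.92). In granular-like cells it went the other way, with 342 to 546 CPM in the WT strips and 217 to 333 CPM in the Utx-cKO strips, a log2 ratio of -0.65 (-1.09 to -0.21). In the Lhx2 cluster, its main site, the ratio was 0.00 (-0.11 to 0.12). Over all genes compared, the strips did not overlap for 5.54% in the Dct cluster and 5.68% in granular-like cells. Without 1 strip the Sfrp1 ratio went under 1.5-fold in the Dct cluster (0.56 without WT strip 1, and 0.51 when Utx-cKO strip 1 was left out) and in granular-like cells (-0.54 without WT strip 4).

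**Figure D5:**
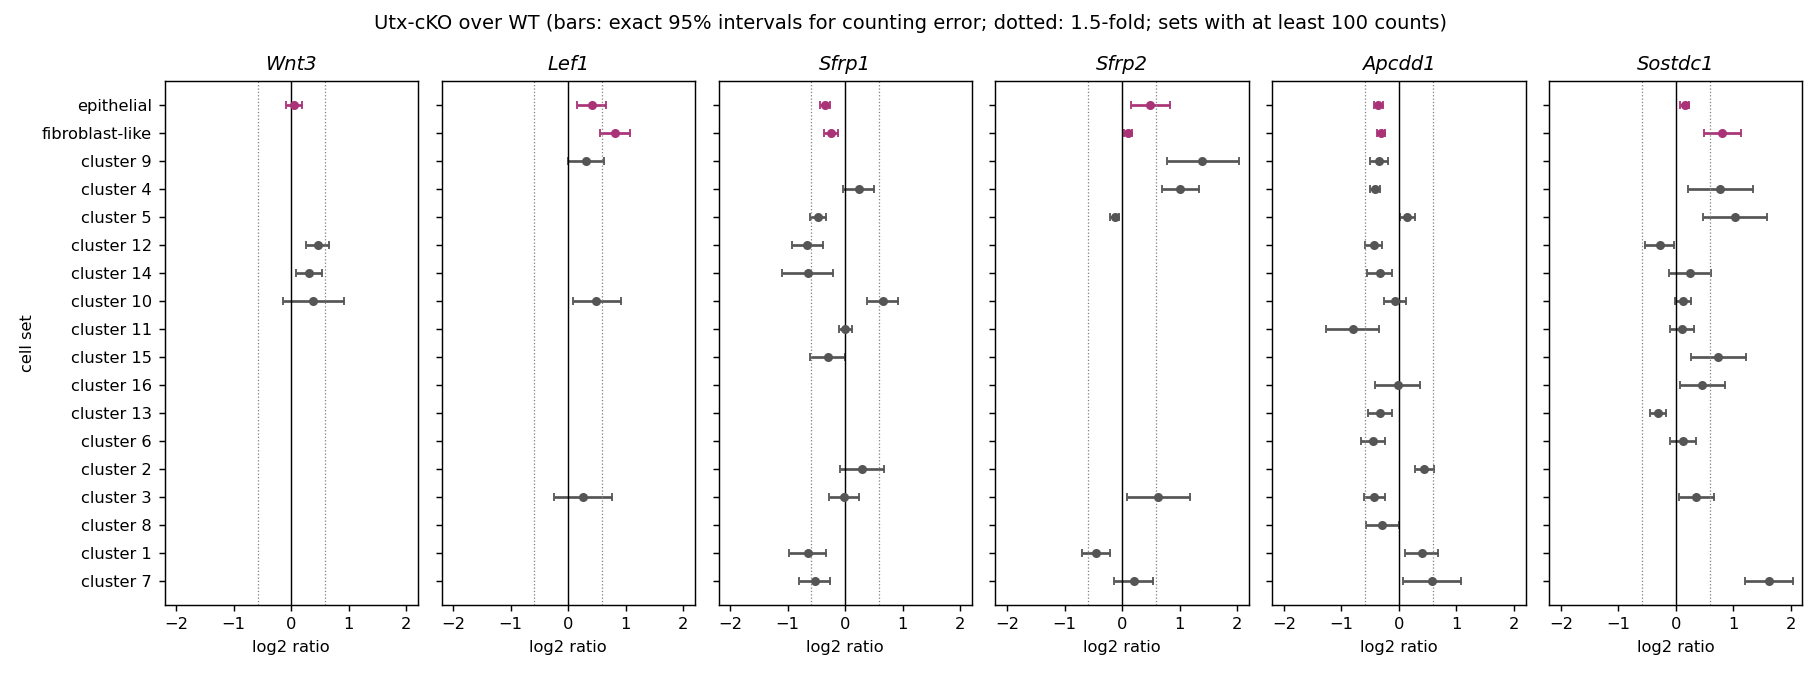
Log2 ratio of Utx-cKO over WT with exact 95% intervals for counting error, for each gene in all epithelial and all fibroblast-like cells (purple) and in single clusters (grey), where the gene had at least 100 counts. In epithelial cells all 6 genes lie within the dotted 1.5-fold lines, and Lef1 and Sostdc1 lie beyond them in fibroblast-like cells.

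Of 80 other Wnt pathway genes listed for this work, 3 were on the panel: Ctnnb1, which encodes beta-catenin, and the target genes Ccnd1 and Myc. Of 13 BMP pathway genes 1 was on it, Id2, a BMP target. None of these 4 was 1.5-fold apart between the sections in epithelial cells (log2 ratios -0.08 for Ctnnb1, -0.24 for Ccnd1, 0.20 for Myc and 0.30 for Id2) or in fibroblast-like cells (0.08, 0.18, -0.14 and 0.43). Ctnnb1 was highest in the Inhba cluster, as Lef1 was, at 18850 CPM in WT and 18677 CPM in Utx-cKO, against 6825 and 6464 CPM over epithelial cells.

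Over the 16 clusters of both sections pooled, the genes whose log2 levels were most like those of each member were found by Pearson's r, given as a description since all clusters come from the same 2 sections. Wnt3 was most like Krt1 (0.97), Casp14 (0.92), Lor (0.91) and Hrnr (0.90), genes of keratinocyte differentiation. Lef1 was most like Src (0.79), Kdm6b (0.78), Tnc (0.77) and Inhba (0.77), and Sfrp1 like St3gal2 (0.79), Crebbp (0.74), Tnc (0.71) and Slc7a8 (0.70). Sfrp2 was most like Pdpn (0.86), Nfe2l2 (0.83), Axl (0.83) and Mmp2 (0.83). Apcdd1 was most like Ptger3 (0.81), Adam12 (0.80), Lcn2 (0.79) and Il17a (0.72), and Sostdc1 like Tfap2a (0.82), Cxadr (0.81), Krt17 (0.81) and Lamb3 (0.81). Among the 6 genes themselves r ran from -0.37 for Sfrp2 with Sostdc1 to 0.52 for Lef1 with Apcdd1.

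Single cells with transcripts of 2 of the genes were counted for each pair. Each share also follows from how many cells carry the second gene, and no excess over that was tested. Of all 33263 WT and 37395 Utx-cKO kept cells, 6164 and 4915 had Apcdd1. Sfrp1 was in 3370 and 2692 of all kept cells, and Lef1 in 445 and 619 of all kept cells. Of 818 WT and 923 Utx-cKO cells with a Wnt3 transcript, 1.59% and 0.867% also had Lef1, while 21.6% and 19.4% had Apcdd1. Of the 2382 and 2949 cells with Sostdc1, 22.1% and 19.3% had Apcdd1. Of 445 and 619 cells with Lef1, 33.5% and 26.7% also had Apcdd1, while 2.42% and 3.36% of the 6164 and 4915 Apcdd1 cells had Lef1. Of the 1771 and 1551 cells with Sfrp2, 19.7% and 13.5% also had Sfrp1, which was 10.3% and 7.80% of the 3370 and 2692 Sfrp1 cells.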

How the data were processed

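Per the labels' protocols, a custom 480-gene panel with negative control probes was imaged on 5 µm paraffin sections with the Xenium workflow. The deposited files hold 1 line per decoded transcript with a quality score, capped at 40, and the cell it was assigned to, and the counts per cell in the deposited cell tables equal a recount at a quality score of at least 20 in all cells. The sources used here do not name the decoding or segmentation software. Cell and nucleus areas, the only signal values in the deposited cell tables, entered no result.

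Cells with at least 20 transcripts were clustered on the panel without the 6 genes (scanpy 1.11.5, 30 components, 15 neighbours, Leiden resolution 1) and named from marker lists where at least 3 markers led the cluster; a cluster stayed unnamed where more of its first 3 leading genes marked other classes, a rule chosen after the data were seen. Counts were summed per cell set and scaled to CPM with exact Poisson intervals, and ratios have exact conditional binomial intervals at 95% (scipy 1.17.1). On simulated counts for the epithelial comparison, 94.9% of intervals over 468 genes held the true ratio. Those counts were drawn with counting error alone, so this share says nothing about spread between strips or animals. A difference is named at 1.5-fold and 100 counts. No doublet caller was run on these sections, since overlapping cells in a section are not doublets of a droplet. Strips are tissue pieces joined at 100 µm. The 2 sections share 2 cell IDs. The 6 genes, marker lists and other pathway lists were chosen with earlier results of these data known. Named genes are the 6, Kdm6a, listed pathway genes on the panel and, for each of the 6, the 4 genes most like it over clusters by Pearson's r of log2(CPM + 10). Alternatives covered quality, nucleus, depth, scaling, clustering, follicle definition and leaving out each strip.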

Additional observations from a re-analysis of the deposited data

How the results depend on the processing

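The recomputed results were counts of genes past 1.5-fold and, for each gene and section, the cluster with the highest level. Of these, 201 stayed the same or within 1.5 times of the reported count, and 7, all counts of genes, did not. A count could stay while its genes changed. In fibroblast-like cells the count between sections by mean counts per cell was still 2, but for Apcdd1 and Sfrp1. Of the single log2 ratios, 734 stayed within their reported interval, 265 moved beyond it and 14 of those past 1.5-fold reversed. The count between sections in fibroblast-like cells, 2 as reported, was 1 with transcripts over the nucleus alone and 1 with each cluster at the same share, and 0 without WT strip 1. The count in epithelial cells, 0 as reported, was 2 by mean counts per cell, and leaving out WT strip 2, WT strip 4 or Utx-cKO strip 3 gave 1. With upper follicle cells as anchor, the follicle over other epithelial log2 ratio in WT and Utx-cKO reversed to 0.31 and 0.33 for Apcdd1, -2.25 and -1.67 for Lef1 and -4.54 and -3.22 for Sfrp1, and near over far in WT to -0.93 for Lef1. With follicle cells taken by cluster Apcdd1 reversed to 0.083 and 0.47. Without the Inhba cluster, an alternative chosen after seeing the data like the next one and the depth band, Lef1 in epithelial over fibroblast-like cells reversed to 0.69 and 0.10, and with fibroblast-like cells over 25 µm from epithelial cells to 0.21 in WT. Leaving out strips within named clusters, also chosen after seeing the data, reversed Apcdd1 in the Lhx2 cluster to 0.017 without WT strip 3 and Sostdc1 in the Slc16a3 cluster to -0.59 without Utx-cKO strip 3. The cause was not tested beyond what each setting leaves out. No paired analysis was possible because the labels carry no replicate numbers and each group has 1 section.

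With about 50 transcripts per cell, levels of Wnt3 outside the epithelium and of Sfrp2 inside it rest on few counts, and neither section gives a spread between animals.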

Other observations

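The Inhba cluster, where Lef1 and Apcdd1 were highest, was compared between the sections by its distance to the outer root sheath-like Lhx2 cluster. The median distance from one of its cells to the nearest Lhx2 cluster cell was 23.5 µm in WT (20.8, 19.1, 23.6 and 29.6 µm in strips 1 to 4) and 36.8 µm in Utx-cKO (34.8, 38.2, 33.9 and 41.8 µm), so the strips did not overlap. The share of Inhba cluster cells within 25 µm of the Lhx2 cluster was 55.6% in WT (36.2 to 73.5% over strips) and 22.2% in Utx-cKO (17.6% in its lowest strip), again without overlap. Other fibroblast-like cells were at a median of 77.0 and 80.3 µm. Of them 17.5% and 14.6% were within 25 µm, with overlapping strips (10.2 to 24.06% and 5.36 to 21.45%). The distance to the nearest epithelial cell of any kind was 11.4 µm in WT and 14.97 µm in Utx-cKO, with overlapping strips (10.5 to 14.96 and 12.4 to 20.01 µm). The Lhx2 cluster itself was 12.8 to 18.2% of epithelial cells in the WT strips and 10.2 to 11.8% in the Utx-cKO strips, which do not overlap. Of the 8 epithelial clusters it was the only 1 with shares that did not overlap. Distances to the Lhx2 cluster did not overlap between the sections for 2 of 15 clusters. These were the Inhba cluster itself and the cluster led by Krt17 and Ptn. Measured to follicle cells, the medians for Inhba cluster cells overlapped, at 12.8, 113, 21.3 and 18.0 µm in the WT strips and 47.8, 24.7, 47.2 and 284 µm in the Utx-cKO strips, and 22 cells of Utx-cKO strip 4 met the follicle cell rule, 0.595% of its epithelial cells. Whether the fewer Lhx2 cluster cells or the lower transcript number per cell bear on the distance was not tested.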
